A study of Mus musculus with 7 samples.

Results

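Transcripts of CTCF and of the proteins that load, hold, release and acetylate cohesin were measured by RNA-seq in mouse lymphoma cell lines with and without Smchd1. The 10 genes were Ctcf, Rad21, Stag1, Stag2, Nipbl, Mau2, Pds5a, Pds5b, Wapl and Esco1, taken by symbol from the 27179 genes counted in each library. The SMC subunits of the cohesin ring were not among them. All 10 were found by their Entrez identifiers and all 10 passed the filter on low counts, so none was lost before testing.

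The samples were 3 Smchd1 wild-type lines and 4 Smchd1 null lines, each grown from an end-stage lymphoma of a C57BL/6 male. Every line of both groups also carried the Eµ-Myc transgene, in which Myc is driven by an immunoglobulin heavy chain enhancer that acts in the B lineage, so all values describe Myc-driven tumour cells. The labels describe the null lines as homozygous for a gene trap in Smchd1, whereas the methods of the study write the genotype as Smchd1 MD1/MD1. Wild-type replicate 1 was the only library of batch 1 and the only one sequenced from single ends. Each line was a tumour grown in culture, and the labels do not say whether any lines share an animal, so p-values measure the spread between these samples.

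CTCF is a zinc finger protein that binds DNA and sets many of the borders of chromatin loops. Cohesin is a ring of Smc1a, Smc3 and Rad21 that holds sister chromatids together and extrudes loops until it meets CTCF. A Stag subunit, Stag1 or Stag2, sits on Rad21. Nipbl and Mau2 form the loader, Wapl releases the ring with the help of Pds5a or Pds5b, and Esco1 and Esco2 acetylate Smc3, which protects the ring from release. Smchd1 is itself a noncanonical SMC protein, and the comparison asks whether the transcripts of this machinery differed when it was absent.

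Library totals ran from 3626853 to 7519549 counts, and the member genes had between 159 and 4903 counts in a library. The counting error of a single value was therefore between 1.43% and 7.93%, by the Poisson standard deviation, which covers counting error only. Smchd1 was at 248, 230 and 219 CPM (counts per 1000000 counts of the library) in wild-type replicates 1 to 3 and at 25.9, 22.6, 28.6 and 28.7 CPM in Smchd1 null replicates 1 to 4, so no library went against its label. Wild-type replicates 2 and 3 were far more alike than any other pair within a group. The chi-square of their counts was 3.96 per degree of freedom, against 18.1 to 64.9 for the other pairs, so they differed by more than counting noise. This excess does not show that they are independent lines. They were kept as separate samples, and results with the 2 summed are given below. Of the B lineage markers, 3 are given, chosen after their values were seen. Cd79b, a part of the B cell receptor, was at 262 to 444 CPM over the 7 libraries. Cd22, a B cell surface protein, was at 25.4 CPM in Smchd1 null replicate 4 and at 180.0 to 341 CPM in the other libraries, and the B lineage factor Pax5 was at 16.6 CPM in that line and at 51.3 to 84.9 CPM in the others. Not every marker of the list of 8 was lowest in Smchd1 null replicate 4, where Cd79b was at 303 CPM. The 5 T cell markers summed to at most 0.532 CPM in any library, and Cd3e and Cd8a had no counts. In these bulk libraries, fewer cells of a type and less RNA per cell cannot be told apart.

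None of the 10 genes differed between Smchd1 null and wild-type lines at an FDR under 0.05. In the same fit, which was limma's voom with a weight for each sample, 1474 of 12303 genes were called, or 12.0% of those tested (5.02% higher and 6.96% lower in Smchd1 null lines). At an unadjusted p under 0.05 there was 1 member, Mau2, where 31.6% of all genes tested passed that level. Voom without sample weights and the quasi-likelihood test of edgeR each called 0 of the 10 and 0.0975% of all genes, and DESeq2 called 0 of the 10 and 3.10% of all genes, with 0 members at an unadjusted p under 0.05 in each, where 11.3% to 13.0% of genes with a p-value passed that level. Among batch 2 libraries alone, where 13.5% of genes were called, the count of members was again 0, with 2 at an unadjusted p under 0.05 where 32.4% of all genes passed that level.

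The fitted differences of the 10 genes were smaller, at the median, than those of all genes. The point estimate was above 0 for 7 genes and below 0 for 3, with a median log2 fold change of 0.13 against -0.01 over all genes tested. The median size of the change, without its sign, was 0.13 for the 10 genes and 0.29 for all genes. The 95% intervals of the 10 fold changes lay between 0.754 and 1.53 times the wild-type level. The genes also varied little among lines. All 10 had a standard deviation of log2 CPM over the 7 libraries below the median of all genes tested, 0.382, and the median of the 10 was 0.191. Their mean levels lay between the 43.8th percentile of all genes tested (Esco1) and the 95.1st (Rad21), and the part of the level in this low spread was not tested.

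**Figure D1:**
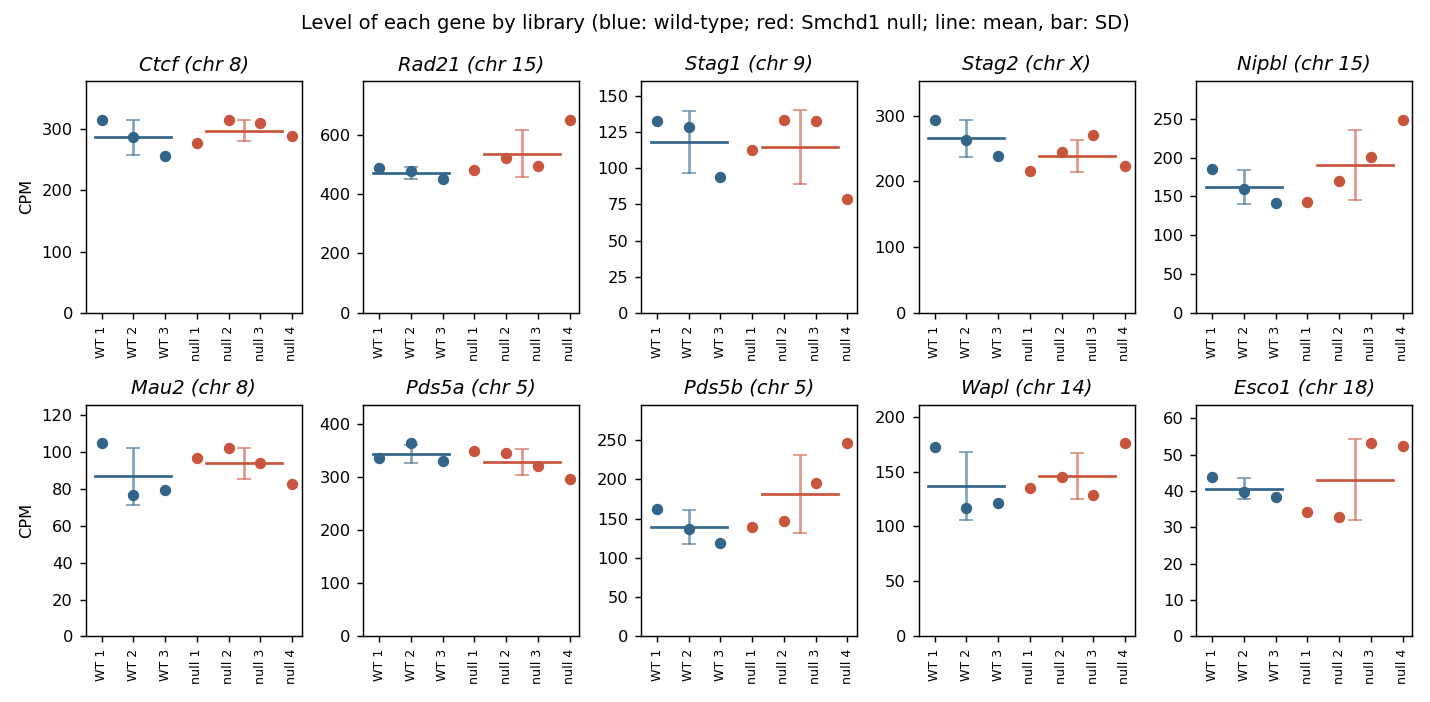
CPM of each of the 10 genes in each of the 7 libraries, with blue points for wild-type (WT 1 to 3) and red points for Smchd1 null (null 1 to 4); the horizontal lines are group means and the bars are SD (n = 3 and n = 4), and each vertical axis starts at 0. The groups overlap in every panel, and Smchd1 null replicate 4 is the highest library for Rad21, Nipbl, Pds5b and Wapl and the lowest for Stag1 and Pds5a.

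Promoter sequence was examined for the members that the RefSeq promoters used here cover. The 250 bases before the start of a RefSeq transcript on build GRCm38.p6 were taken for Ctcf, Stag1, Mau2, Pds5a, Pds5b and Wapl. Only the windows of Mau2 and Pds5a lay wholly before the annotated gene. Those of Ctcf and Pds5b ran past the gene start. The windows of Stag1 (from 100643198, gene from 100597709) and Wapl (from 34673678, gene from 34672379) lay inside the gene. All 6 held more CpG dinucleotides than the median of 6 in 32851 such windows. The counts were 40 for Ctcf, 31 for Stag1, 18 for Mau2, 44 for Pds5a, 36 for Pds5b and 32 for Wapl. The TATAAA motif, in 12.4% of all windows on either strand, was in none of the 6, and neither was the E-box CACGTG (6.02% of all windows), the sequence bound by Myc, or the ETS-type motif CCGGAAG (6.91%). The letters CCAAT, found in 33.8% of all windows, were in those of Stag1, Pds5b and Wapl. Absence from a window says only that these letters are not there.

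Stretches that overlap no annotated gene are shown for Pds5a, Mau2 and Smc3. The Pds5a window was the richest in CpG of the member windows examined. Mau2 was the member with the smallest p-value, and Smc3 was the ring subunit called lower. Capitals mark each CpG. The Mau2 stretch is short because only 34 bases separate Mau2 from the neighbouring gene Sugp1 on the other strand. The stretches lie at chr5:65698274-65698486 (minus strand, 36 CpG), chr8:70042735-70042768 (minus strand, 4 CpG) and chr19:53600146-53600395 (plus strand, 26 CpG).
Pds5a: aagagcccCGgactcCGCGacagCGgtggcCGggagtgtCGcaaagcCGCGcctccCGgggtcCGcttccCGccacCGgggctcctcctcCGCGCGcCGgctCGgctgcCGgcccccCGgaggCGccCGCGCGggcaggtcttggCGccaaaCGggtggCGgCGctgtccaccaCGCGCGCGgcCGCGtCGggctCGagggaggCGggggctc
Mau2: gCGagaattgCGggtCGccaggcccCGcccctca
Smc3: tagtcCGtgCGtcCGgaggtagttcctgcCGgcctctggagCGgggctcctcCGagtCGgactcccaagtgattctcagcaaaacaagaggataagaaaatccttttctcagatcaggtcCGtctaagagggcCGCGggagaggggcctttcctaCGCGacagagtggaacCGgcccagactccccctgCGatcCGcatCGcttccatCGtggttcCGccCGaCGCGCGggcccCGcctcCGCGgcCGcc

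Ctcf (Entrez 13018, GRCm38 chromosome 8, 105636474 to 105682922) was at 316, 287 and 257 CPM in wild-type replicates 1 to 3. In Smchd1 null replicates 1 to 4 it was at 278, 315, 311 and 289 CPM. In CPM the null lines fell inside the wild-type range. On the normalised log2 scale of the fit, null replicates 2 and 3 (deviations of 0.11 and 0.09 from the mean) were above the highest wild-type line (0.06), and the groups still overlapped. Its log2 fold change was 0.13 (SE 0.09, 95% interval -0.08 to 0.33, limma FDR 0.373). Its spread over the 7 lines, an SD of 0.094 on the log2 scale, was smaller than that of all but 1.07% of genes tested. The annotation places a noncoding gene, Gm5914, over the start of Ctcf, and because the library kit does not mark strand their reads cannot be told apart there.

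Rad21 encodes the subunit that closes the cohesin ring and that separase cuts in mitosis (Entrez 19357, chromosome 15, 51962604 to 51993538). Its level was 488, 478 and 451 CPM in wild-type lines and 482, 522, 495 and 652 CPM in Smchd1 null lines. Smchd1 null replicate 4 stood highest, and the other 3 null lines were close to the wild-type lines. In CPM the groups overlapped by a narrow margin. On the normalised log2 scale used in the fit they did not, which made Rad21 the only member of the 10 without overlap, where 13.1% of all genes tested showed none. The log2 fold change was 0.13 (SE 0.08, 95% interval -0.07 to 0.32, limma FDR 0.334).

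The level of Rad21 in Smchd1 null replicate 4 stood beside a shift of its whole chromosome. Over 453 tested genes of chromosome 15, the median deviation of log2 CPM from the mean of the 7 libraries was 0.42 in this line. It lay between -0.10 and -0.01 in the other 6 lines. Rad21 itself deviated by 0.34 in replicate 4. With log2 CPM centred in each library on the median of each gene's own chromosome, Rad21 deviated by -0.08 in this line and the log2 fold change was 0.04 (SE 0.07, limma FDR 0.769). In that fit 8.52% of all genes and 0 of the 10 were called, with 2 of the 10 at an unadjusted p under 0.05 where 29.0% of all genes passed that level. Leaving out replicate 4 gave a log2 fold change of 0.11 for Rad21.

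Stag1 and Stag2 encode the alternative subunits that contact CTCF and DNA, and Stag2 is a gene that is often mutated in human tumours. Stag2 (Entrez 20843, chromosome X, 42149297 to 42277186) was at 294, 264 and 239 CPM in wild-type lines and at 215, 246, 271 and 224 CPM in Smchd1 null lines. Stag1 (Entrez 20842, chromosome 9, 100597709 to 100958544) was at 133, 128 and 93.8 CPM in wild-type lines and at 113, 134, 133 and 79.0 CPM in null lines. For Stag1 the lowest libraries were wild-type replicate 3 and Smchd1 null replicate 4, one from each group. The log2 fold changes were -0.08 for Stag2 (SE 0.10, 95% interval -0.31 to 0.14, limma FDR 0.588) and 0.13 for Stag1 (SE 0.17, 95% interval -0.27 to 0.53, limma FDR 0.66). The sign for Stag1 turned without sample weights, to -0.05.

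Per base of gene length, Stag2 was the more abundant of the pair in each of the 7 lines. The ratio of Stag2 to Stag1 in RPKM (CPM per kilobase of gene length) was 2.18, 2.03 and 2.51 in wild-type lines. It was 1.88, 1.81, 2.01 and 2.79 in Smchd1 null lines. The groups overlapped, and both the lowest and the highest ratio came from null lines. The mean log2 ratio was 1.16 ± 0.16 (SD, n = 3) in wild-type and 1.06 ± 0.29 (SD, n = 4) in null lines, a difference of -0.09, or -0.23 without Smchd1 null replicate 4. Ratios between members are given as descriptions with no test.

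Nipbl and Mau2 encode the partners of the cohesin loader. Nipbl (Entrez 71175, chromosome 15, 8289824 to 8465315) was at 185, 159 and 142 CPM in wild-type lines and 143, 169, 201 and 249 CPM in Smchd1 null lines. Null replicates 3 and 4 were above the wild-type range and null replicates 1 and 2 within it. Its log2 fold change was 0.17 (SE 0.13, 95% interval -0.12 to 0.46, limma FDR 0.393). Nipbl shares chromosome 15 with Rad21. In Smchd1 null replicate 4 it deviated by 0.48 from its mean, and by 0.06 after centring on the chromosome. In replicate 3, where the chromosome was not raised (-0.05), Nipbl deviated by 0.20. Leaving out each library in turn moved the log2 fold change of Nipbl between 0.03 (without wild-type replicate 3) and 0.34 (without Smchd1 null replicate 1). It was 0.28, 0.09 and 0.13 without null replicates 2, 3 and 4.

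Mau2 (Entrez 74549, chromosome 8, 70014527 to 70042734) had the smallest p-value of the 10. Its levels were 105, 76.8 and 79.3 CPM in wild-type lines and 96.7, 102, 94.2 and 82.6 CPM in Smchd1 null lines. All 4 null lines exceeded wild-type replicates 2 and 3, but wild-type replicate 1 exceeded all 4 null lines in CPM. On the normalised log2 scale of the fit, null replicate 2 (a deviation of 0.18 from the mean) was above wild-type replicate 1 (0.16). The log2 fold change was 0.30 (SE 0.09, 95% interval 0.09 to 0.52, limma FDR 0.0698). Wild-type replicate 1 had a sample weight of 0.245, against 3.79 and 3.07 for wild-type replicates 2 and 3. Without sample weights, the log2 fold change was 0.14 with a limma FDR of 0.768. With wild-type replicates 2 and 3 summed into 1 sample it was 0.15 with a limma FDR of 0.949. Mau2 was higher than Nipbl per base of length in 2 null lines only, with Nipbl to Mau2 ratios of 1.06, 1.24 and 1.07 in wild-type and 0.887, 0.991, 1.28 and 1.81 in null lines.

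Wapl (Entrez 218914, chromosome 14, 34672379 to 34747983), the release factor, was at 173, 117 and 122 CPM in wild-type lines and 135, 145, 129 and 176 CPM in Smchd1 null lines. The pattern resembled that of Mau2 in that the 4 null lines were above wild-type replicates 2 and 3, while wild-type replicate 1 was near the top of the range. Its log2 fold change was 0.21 (SE 0.10, 95% interval -0.02 to 0.44, limma FDR 0.185), and 0.01 with wild-type replicates 2 and 3 summed.

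Pds5a and Pds5b encode paralogous proteins that bind Rad21 and serve both Wapl and the Esco enzymes. Pds5a (Entrez 71521, chromosome 5, 65605719 to 65698236) was among the steadiest of the 10. It was at 336, 363 and 330.4 CPM in wild-type lines and at 349, 345, 320.0 and 297 CPM in Smchd1 null lines. The log2 fold change was -0.05 (SE 0.09, 95% interval -0.26 to 0.15, limma FDR 0.723). Pds5b (Entrez 100710, chromosome 5, 150673713 to 150810669) varied most of the 10, at 163, 137 and 119 CPM in wild-type lines and 139, 147, 195 and 246 CPM in null lines. Null replicates 3 and 4 were above every wild-type line, and null replicates 1 and 2 were within the wild-type range. Its log2 fold change was 0.29 (SE 0.14, 95% interval -0.03 to 0.62, limma FDR 0.196). Without 1 library it ranged from 0.12 (without wild-type replicate 3) to 0.48 (without null replicate 1). It was 0.47 and 0.23 without null replicates 2 and 4, and 0.18 with wild-type replicates 2 and 3 summed.

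For Pds5b the chromosome did not move with the gene. The median deviation of 761 tested genes on chromosome 5 was -0.01 in Smchd1 null replicate 3 and -0.05 in replicate 4, where Pds5b deviated by 0.29 and 0.60. The balance of the paralogs followed Pds5b. Pds5a was 3.64, 4.66 and 4.89 times as abundant as Pds5b per base of length in wild-type lines, and 4.42, 4.13, 2.90 and 2.13 times in null lines. The mean log2 ratio was 2.13 ± 0.23 (SD, n = 3) in wild-type and 1.70 ± 0.49 (SD, n = 4) in null lines, a difference of -0.42. Without Smchd1 null replicate 4 the difference was -0.22. Replicate 4 was also the line with the lowest Cd22 and Pax5. It had the highest Pecam1, from the list of 4 endothelial markers, at 219 CPM against 44.1 to 94.2 CPM in the other lines. Tek, of the same list, was also highest there, at 3.06 CPM against at most 0.161 CPM. Cdh5 was not raised there, at 1.33 CPM against 1.28 to 3.58 CPM in the other lines. The endothelial receptor Kdr had no counts in any library. The part of this difference between lines in the values of Rad21, Nipbl and Pds5b was not tested.

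Esco1 (Entrez 77805, chromosome 18, 10566507 to 10610863), an acetyltransferase of Smc3, was the least abundant of the 10. Its levels were 43.8, 39.9 and 38.4 CPM in wild-type lines and 34.2, 32.8, 53.1 and 52.4 CPM in Smchd1 null lines. The null lines thus split around the wild-type lines, with replicates 1 and 2 below all of them and replicates 3 and 4 above. The log2 fold change was -0.05 (SE 0.16, 95% interval -0.41 to 0.31, limma FDR 0.859). The 282 tested genes of chromosome 18 had a median deviation of 0.34 in Smchd1 null replicate 3 and 0.32 in replicate 4, against -0.19 to -0.06 in the other 5 lines. In null replicates 1 and 2 Esco1 deviated by -0.24 and -0.34, and by -0.16 and -0.21 after centring on the chromosome. The medians of the chromosome there were -0.08 and -0.13, against -0.16 and -0.19 in wild-type replicates 2 and 3. Esco1 itself deviated by 0.36 and 0.31 in replicates 3 and 4. After centring on the chromosome these became 0.02 and -0.01, and the 4 null lines all lay below the 3 wild-type lines. The share of all genes without overlap after centring was not computed, so nothing is read from this separation. The log2 fold change after centring was -0.24 (SE 0.09, limma FDR 0.131). The effect of chromosome 18 on Esco1 was not tested beyond this centring.

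**Figure D2:**
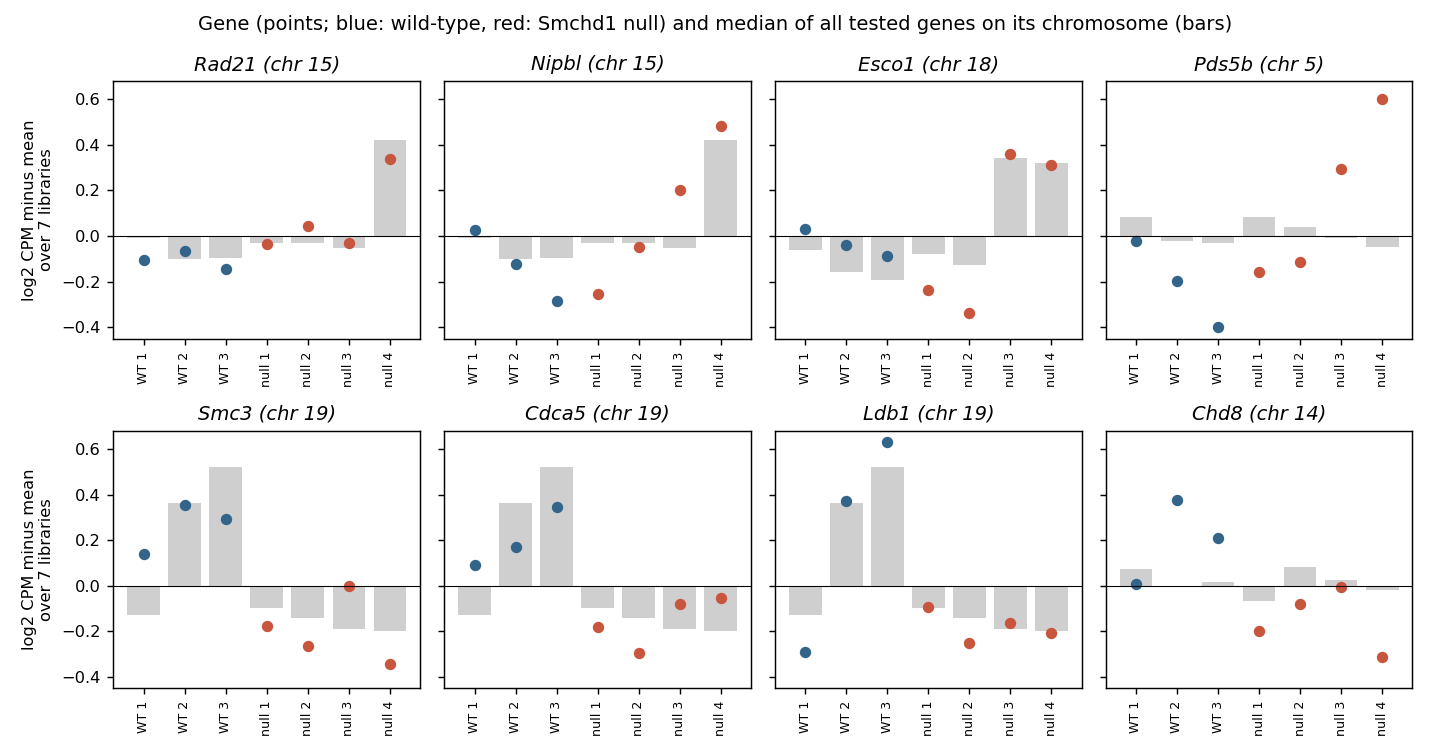
Deviation of log2 CPM from its mean over the 7 libraries for Rad21, Nipbl, Esco1 and Pds5b (top) and for Smc3, Cdca5, Ldb1 and Chd8 (bottom), with blue points for wild-type and red points for Smchd1 null lines; grey bars show the median deviation of all tested genes on the same chromosome. Rad21 and Esco1 rise with their chromosomes in Smchd1 null replicate 4 (0.42 for chromosome 15 and 0.32 for chromosome 18), whereas Pds5b reaches 0.60 over a bar of -0.05.

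Levels per base of length were compared within these libraries. Rad21 stood first at 141 ± 18.4 RPKM (SD, n = 7) and above the range of every other member. Pds5a (80.6 ± 5.18) and Ctcf (76.7 ± 5.73) followed, and these neighbours did not differ beyond their spread, with Pds5a higher in 4 of 7 libraries. Both were above the range of Stag2 (41.1 ± 4.56), which was higher than Wapl (31.0 ± 5.14) in 6 of 7 libraries although their ranges overlapped. Wapl was higher than Pds5b in 7 of 7 libraries, also with overlapping ranges. Pds5b (22.4 ± 5.94), Nipbl (19.9 ± 4.21), Stag1 (19.4 ± 3.68) and Mau2 (16.9 ± 2.11) had overlapping ranges. Pds5b was higher than Nipbl in 7 of 7 libraries, and Stag1 was higher than Mau2 in 6 of 7. Nipbl exceeded Stag1 in only 3 of 7 libraries, so Nipbl and Stag1 could not be ordered. Esco1 was last at 9.27 ± 1.8 RPKM, below the range of all others.

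Among all genes tested, the mean RPKM of Rad21 was at the 95.1st percentile and that of Esco1 at the 43.8th. The ratio of Ctcf to Rad21 was 0.611, 0.566 and 0.538 in wild-type lines and 0.543, 0.568, 0.592 and 0.418 in Smchd1 null lines. It was lowest in null replicate 4, the line with raised Rad21. The ratio of Wapl to Nipbl, the releaser to the loader, was 1.82, 1.44 and 1.68 in wild-type and 1.85, 1.68, 1.25 and 1.38 in null lines. The groups overlapped for both ratios.

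**Figure D3:**
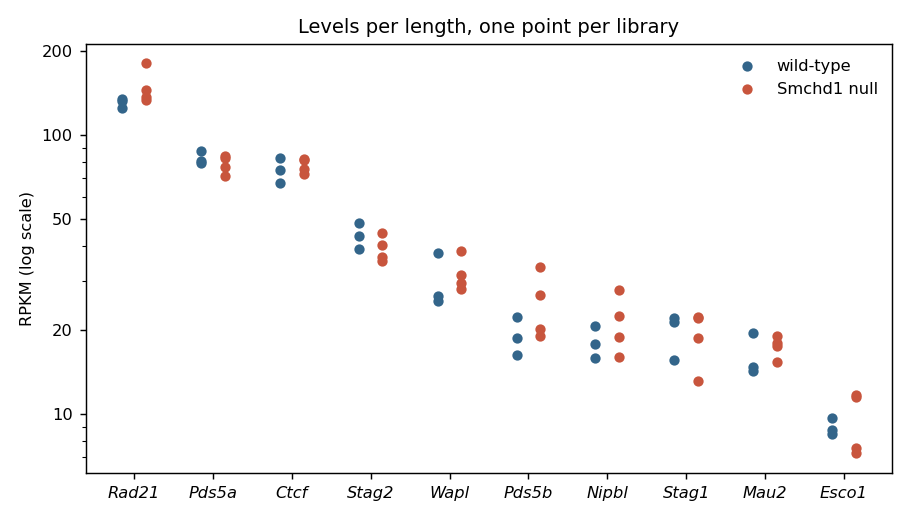
RPKM (log scale) of the 10 genes in order of their mean over the 7 libraries, with one point per library (blue, wild-type; red, Smchd1 null). Rad21 is highest at a mean of 141 RPKM and Esco1 lowest at 9.27 RPKM, and wild-type and null points overlap within each gene.

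The other genes of the pathway were read from a list of 20. Of these 16 were tested, 2 were called lower in Smchd1 null lines and 0 higher, and 14 were not called. Among all genes tested 12.0% were called and 6.96% were called lower, and 2 of 16 is near that background. The median log2 fold change of the 16 was 0.03. The genes called were Smc3, a core arm of the cohesin ring, and Cdca5, which encodes sororin, the protein that counters Wapl on acetylated cohesin. The partner arm Smc1a, named here after its values were seen, at 379, 354 and 350 CPM in wild-type and 383, 393, 387 and 317 CPM in null lines, did not pass the test (log2 fold change 0.11, SE 0.08, limma FDR 0.375).

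Smc3 (Entrez 13006, chromosome 19, 53600396 to 53645831) was at 355, 392 and 376 CPM in wild-type lines and at 268, 259, 310.3 and 249 CPM in Smchd1 null lines. The groups did not overlap. Its log2 fold change was -0.51 (SE 0.09, 95% interval -0.71 to -0.30, limma FDR 0.0153). Cdca5 (Entrez 67849, chromosome 19, 6085097 to 6091773) was at 103, 103 and 116 CPM in wild-type lines and at 79.8, 75.7, 87.6 and 91.1 CPM in null lines, again without overlap. Its log2 fold change was -0.44 (SE 0.10, 95% interval -0.68 to -0.21, limma FDR 0.0325). Without sample weights neither was called, with limma FDRs of 0.257 for Smc3 and 0.361 for Cdca5. DESeq2 called Smc3 and not Cdca5 (FDR 0.15 for Cdca5).

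Both genes lie on chromosome 19, where the wild-type lines differed among themselves. The median deviation of its 433 tested genes was 0.36 in wild-type replicate 2 and 0.52 in wild-type replicate 3, against -0.13 in wild-type replicate 1 and -0.20 to -0.10 in the null lines. Of these genes 38.6% were called, nearly all of them lower in null lines (165 of 167). Centring on the chromosome moved the log2 fold change to 0.05 for Smc3 (SE 0.11, limma FDR 0.80) and to 0.12 for Cdca5 (SE 0.10, limma FDR 0.458). In wild-type replicate 1, where the chromosome was not raised, Smc3 deviated by 0.14 and Cdca5 by 0.09, above all 4 null lines for both genes. Whether Smc3 and Cdca5 differ apart from chromosome 19 was not tested beyond the centring. Leaving out wild-type replicate 2 or 3, or Smchd1 null replicate 1 or 2, ended both calls. The log2 fold changes were then -0.44 to -0.39 for Smc3 and -0.41 to -0.33 for Cdca5. In the whole table these fits called 1, 1, 504 and 331 genes, against 1474 in the main fit. A lost call therefore says little without wild-type replicate 2 or 3.

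**Figure D4:**
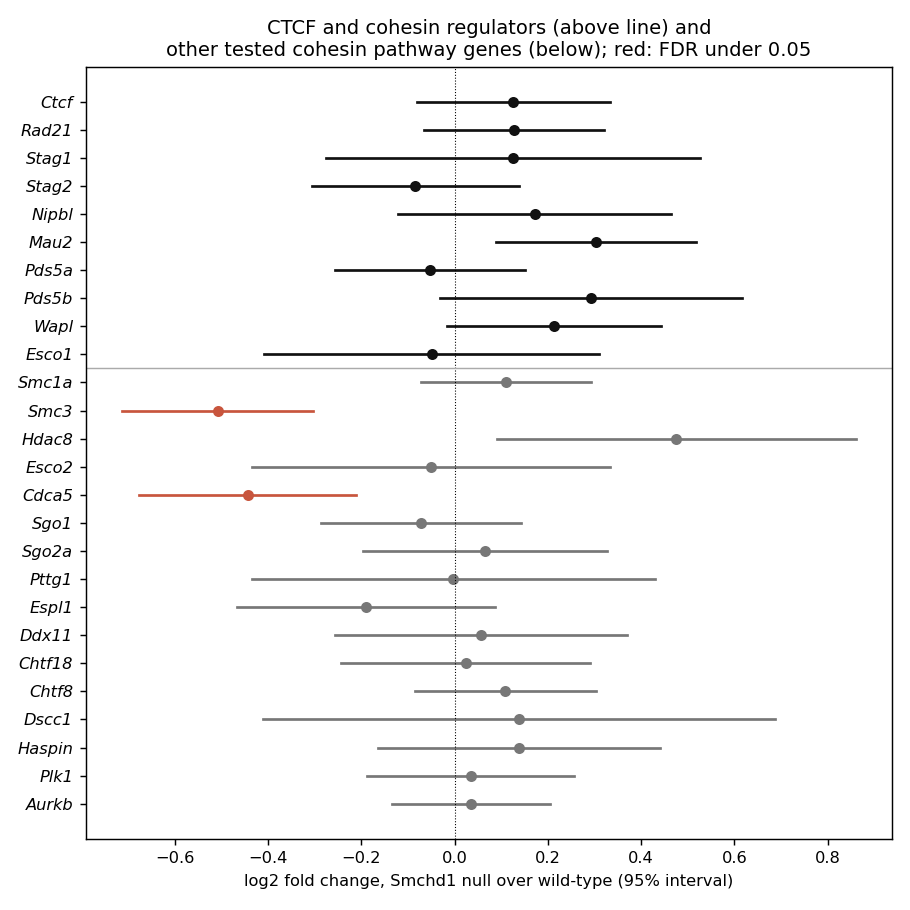
Log2 fold change of Smchd1 null over wild-type lines with its 95% interval, for the 10 genes (black, above the grey line) and the 16 tested genes of the pathway list (grey, below it); red marks an FDR under 0.05. Only Smc3 (-0.51) and Cdca5 (-0.44) are red, and the interval of each of the 10 genes except Mau2 crosses 0.

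The 4 genes of the list that were not tested encode meiotic subunits, and their low counts are described after their values were seen. Rad21l and Rec8 had 0 counts in all 7 libraries, which allows up to 0.827 CPM in the shallowest library (3 counts), and Stag3 had at most 2 counts. Smc1b differed in that wild-type replicate 1 held 119 counts, or 32.8 CPM, while no other library had more than 2 counts. Smc1b was not tested because it passed the minimum level in only 1 library.

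A list of 14 factors that act at loops and domain borders beside CTCF held 13 tested genes, of which 3 were called lower and 0 higher, with a median log2 fold change of -0.04, where 6.96% of all genes tested were called lower. Nothing particular to the list is read from this count. Ctcfl, the germ cell paralog of Ctcf, had 0 counts in all 7 libraries and was also named after its values were seen. The genes called were Parp1, Ldb1 and Chd8. Parp1 (chromosome 1), which modifies proteins with ADP-ribose, was at 939, 1080.3 and 1067 CPM in wild-type lines and 645, 664, 897 and 953 CPM in Smchd1 null lines, with a log2 fold change of -0.58 (SE 0.12, limma FDR 0.0227). Null replicate 4 overlapped the wild-type range and null replicates 1 and 2 were the lowest. The median deviation of chromosome 1 was 0.15 and 0.19 in wild-type replicates 2 and 3, against -0.09 to 0.01 in the other lines. Of its tested genes 22.1% were called. After centring on the chromosome, the log2 fold change of Parp1 was -0.38 (SE 0.12, limma FDR 0.0849). Ldb1 (chromosome 19), an adaptor that links enhancers to promoters, was at 199, 301 and 358 CPM in wild-type and 215, 198, 209.7 and 207 CPM in null lines, with a log2 fold change of -0.65 (SE 0.14, limma FDR 0.0256). Wild-type replicate 1 had the level of the null lines, and the value after centring on chromosome 19 was -0.09 (limma FDR 0.515).

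Chd8 (chromosome 14), a chromatin remodeller that binds CTCF, was at 184, 226 and 201 CPM in wild-type lines and 149.9, 167, 176 and 145 CPM in Smchd1 null lines, and the groups did not overlap. The log2 fold change was -0.40 (SE 0.10, limma FDR 0.0392). It was the only gene of either list still called after centring on its chromosome, at -0.41 (limma FDR 0.0446). Voom alone, edgeR and DESeq2 each called 0 of the 3 genes, where 0.0975%, 0.0975% and 3.10% of all genes were called. An unadjusted p under 0.05 was reached by 1, 1 and 3 of the 13 tested genes of the list. Of all genes with a p-value, 11.3%, 11.5% and 13.0% reached that level. Leaving out any library other than wild-type replicate 1 also ended the call of Chd8, with log2 fold changes of -0.44 to -0.21. Without wild-type replicate 2 or 3 only 1 gene was called in the whole table, so a lost call says little there. Without Smchd1 null replicates 1 to 4 the whole table held 504, 331, 961 and 1425 calls. The limma FDR of Chd8 was 0.0559 without null replicate 3 and 0.0564 without null replicate 4. The calls of Parp1 and Ldb1 ended without wild-type replicate 2 or 3 and without Smchd1 null replicate 1 or 2, at -0.46 to -0.40 for Parp1 and -0.65 to -0.23 for Ldb1.

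The genes whose log2 CPM moved most like a member across the 7 libraries were read as a description, over lines that include the closely alike wild-type replicates 2 and 3. For Mau2 these were Ppp1r16b (Pearson r = 0.988, n = 7), Amd2 (0.987) and Rps27l (0.984). For Ctcf they were Nnat (0.979), Nop10 (0.937) and Ccdc142 (0.930). For Rad21 they were Zfpm1 (0.985), Faah (0.983) and Med30 (0.981), of which Med30 lies on chromosome 15 as Rad21 does. No test was attached to these values.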

How the data were processed

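RNA-seq libraries (TruSeq RNA v2, which does not mark strand) of 3 wild-type and 4 Smchd1 null lines were aligned to mm10 with Subread and summarised per gene with featureCounts by the authors, who deposited raw counts per Entrez gene with the gene length beside each and no normalisation. Treatment of multi-mapping reads is not given in the sources used here. The submitters' processing notes also name CASAVA (version 1.8.2), edgeR (version 3.8.2) and limma (version 3.22.0).

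Symbols and coordinates came from RefSeq on GRCm38.p6, the build of mm10, and 25275 of 27179 identifiers matched, holding 98.2% of counts. CPM used the total count of each library, and RPKM the deposited length. A gene entered the fit if 3 libraries or more reached 0.5 CPM. The fit was limma's voomWithQualityWeights on TMM-scaled library sizes, as in the methods of the study, with no covariate (limma 3.58.1, edgeR 4.0.16, R 4.3.3). P-values were adjusted over all genes by the Benjamini-Hochberg method, and a gene was called at an FDR under 0.05. The 95% intervals use the moderated standard error. Alternatives were voom alone, block weights, sample removal, edgeR, DESeq2 (version 1.42.0), other normalisations and filters, omission of each replicate, the replicate number as a block, batch as a covariate, wild-type replicates 2 and 3 summed, centring on chromosomes with at least 50 tested genes, and an FDR of 0.1.

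The members and gene lists were chosen with earlier results of these data known. Named were all 10 members, Smchd1, list genes that were called, and for Mau2, Ctcf and Rad21 the 3 most correlated genes. Of the other marker lists, 5 myeloid markers summed to at most 32.3 CPM, 4 endothelial markers to at most 223 CPM, 4 erythroid markers to at most 1.73 CPM and 4 fibroblast markers to at most 6.34 CPM. The B lineage markers are given for 3 genes, and 1 result of that list is not reported here.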

Additional observations from a re-analysis of the deposited data

How the results depend on the processing

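Of the 10 members, 0 were called under 20 of 21 alternatives, and 1 (Mau2, higher in Smchd1 null lines) at an FDR threshold of 0.1. At that threshold 2771 of 12303 genes were called. Some alternatives called almost no gene, so 0 members says little there. These were 1 gene without wild-type replicate 2 or 3 or with both summed, and 12 with voom alone or edgeR. The lowest FDR of any member over the alternatives was 0.0623 (limma). Of 200 refitted log2 fold changes of members, 186 kept their direction and 14 changed sign, with no member called in any refit. For Stag1 these were -0.0497 with voom alone, -0.0327 with edgeR and -0.0343 with DESeq2, and for Esco1 0.0679 with voom alone, 0.0102 with block weights, 0.0911 with edgeR and 0.0930 with DESeq2. Pds5a was at 0.0066 with wild-type replicates 2 and 3 summed. Leaving out each replicate in turn gave -0.0672 (without wild-type replicate 3) to 0.181 for Stag1, -0.190 to 0.0060 (without Smchd1 null replicate 1) for Stag2, -0.104 to 0.0545 (without wild-type replicate 2) for Pds5a, -0.0057 (without wild-type replicate 2) to 0.242 for Wapl, and -0.187 to 0.223 for Esco1, which was at 0.180 without Smchd1 null replicate 1 and 0.223 without replicate 2. Centring on the chromosome changed the sign for Smc3 (0.0509) and Cdca5 (0.116).

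Among all genes 1474 were called. The count was 12 with voom alone, 12 with edgeR, 382 with DESeq2, 484 under block weights, 507 after removal of the least weighted line of each group (wild-type replicate 1, Smchd1 null replicate 4), 2771 at an FDR of 0.1 and 1 with wild-type replicates 2 and 3 summed. Leaving out each replicate gave 1 (without wild-type replicate 2 or 3) to 1632 genes, and 504, 331 and 961 without Smchd1 null replicates 1, 2 and 3. Of the cohesin pathway list, 2 genes were called, and 0 with voom alone, block weights, sample removal, edgeR, the summed replicates or the centring, and 1 with DESeq2. Of the architectural list, 3 were called, and 0 with voom alone, block weights, edgeR, DESeq2 or the summed replicates, and 1 after sample removal or the centring. Leaving out each replicate gave 0 to 2 genes for the pathway list and 0 to 3 for the architectural list. The cause was not tested.

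The replicate numbers did not pair the samples, with correlations of deviations of -0.145, 0.228 and -0.185 for numbers 1 to 3, and only the samples numbered 2 matched each other best. With the replicate block 225 genes, 0 members, 0 genes of the pathway list and 0 of the architectural list were called. Depth limits the untested meiotic genes, for which 3 counts equal 0.399 to 0.827 CPM.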
